A study of Mus musculus with 29 samples.

Results

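The 8 genes described here encode plasma membrane amino acid transporters that are known targets of the transcription factor ATF4: Slc7a1, Slc7a3, Slc7a11, Slc3a2, Slc1a4, Slc1a5, Slc38a1 and Slc38a2. They were chosen by symbol from the 22327 genes of a count table of 29 mouse libraries, and all 8 were found in it. The libraries come from translating ribosome affinity purification (TRAP), in which ribosomes carrying a GFP-tagged L10a protein are pulled down with a GFP antibody and their RNA is sequenced. Each library was made from cortex labelled as microglia, from mice aged 6 months. Every mouse carried Cx3cr1CreErt2/+, which acts in microglia and in other cells that express Cx3cr1, and was gavaged at 4-6 weeks with 6 doses of 100 mg/kg tamoxifen to switch on the tag.

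The 7 groups differed in genotype and in drug. TRAP mice (n = 5) were Cx3cr1CreErt2/+;Eef1a1LSL.eGFPL10a/+ and received tamoxifen only. 5xFAD TRAP mice (n = 4) added the 5xFAD transgenes, an amyloid model of Alzheimer's disease, and were given VEGF with ASV. Eif2A mice (n = 4) were Cx3cr1CreErt2/+;Eif2s1A/A;Tg(Eif2s1);Eef1a1LSL.eGFPL10a/+, and 5xFAD Eif2A mice (n = 3) added 5xFAD, both with tamoxifen only. Eif2s1 encodes eIF2α, and the A allele cannot be phosphorylated. The sample labels give both Eif2A groups the ribosomal tag, while the series' design text leaves it out. The 3 iPKR groups carried Cx3cr1CreErt2/+;Eef1a1LSL.NS3.eGFPL10a.iPKR/+, which joins the tag to NS3 and to PKR, an eIF2α kinase made inducible here. The groups were iPKR vehicle (n = 4, VEGF then PEG:DMSO), iPKR ASV (n = 5, VEGF then ASV) and 5xFAD iPKR (n = 4, 5xFAD added, VEGF then ASV). VEGF was given at 1 µg/kg and ASV, an inhibitor of the NS3 protease, at 5 mg/kg, repeatedly over 4 weeks. Eif2A and 5xFAD Eif2A thus differ by 5xFAD alone. 5xFAD TRAP and TRAP differ by 5xFAD and by VEGF with ASV, and iPKR vehicle and TRAP differ by the construct and by VEGF with vehicle, so these cannot be told apart. The 3 comparisons with TRAP share its 5 libraries, and other comparisons share groups in the same way.

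In the integrated stress response, kinases such as PKR phosphorylate eIF2α, general translation falls, and ATF4 is made in larger amounts. ATF4 then raises genes that import or make amino acids, so that cells short of amino acids can rebuild their supply. Among its transporter targets, Slc7a1 and Slc7a3 carry cationic amino acids, Slc7a11 with Slc3a2 exchanges cystine for glutamate, and Slc1a4, Slc1a5, Slc38a1 and Slc38a2 carry neutral amino acids such as serine, alanine and glutamine.

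Library totals were 1.66 to 32.0 M counts, 6.05 M in the middle library. Shares of counts in marker genes were read to check the label. Of 12 homeostatic microglial genes listed, 9 were measured, and they took 0.97% to 1.51% of counts in the 16 libraries without iPKR and 0.0508% to 0.556% in the 13 with it. Neuron markers (11 of 12 measured) took 0.076% to 0.433% of counts without iPKR and 0.567% to 3.62% with it, and astrocyte markers (9 of 10) took 0.0426% to 0.0763% and 0.132% to 0.539%. No neuron, astrocyte or homeostatic marker was at 0 in a whole group. The libraries with the construct thus gave a smaller share of counts to homeostatic microglial genes and a larger one to neuron and astrocyte markers. In a pulldown such shares do not tell fewer cells of a type from less RNA per cell. No source of the difference was tested. Eif2s1 read 118.2 to 209.7 TMM-scaled CPM without iPKR and 39.5 to 132.8 with it. Its count does not show the phosphorylation site and so does not check the Eif2A labels.

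The promoter of Slc7a11 is shown because it carries a pair of matches to TGATGNAA, the core of the composite sites at which ATF4 binds with C/EBP partners. The stretch is chr3:50443633-50443699 of GRCm38.p6 on the minus strand, from RefSeq, and ends 20 bases before the transcription start. Capitals mark the matches, of which the first starts 66 bases and the second, in the reverse orientation, 47 bases before that start.
Slc7a11 upstream stretch: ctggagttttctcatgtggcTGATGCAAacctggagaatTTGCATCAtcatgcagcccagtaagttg
Promoters (250 bases before to 50 after a start) were found for 5 of the 8 genes. Slc1a4 held 1 match, beginning 4 bases before its start, and Slc7a1, at both of its starts, Slc38a2 and Slc3a2 held 0. Searched on both strands, as the only motif, it occurred in 1304 of 32851 promoters of that length (3.97%). A match describes the letters only. Bases outside this window were not searched, so 0 matches in it does not mean that a gene has no such site.

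**Figure D1:**
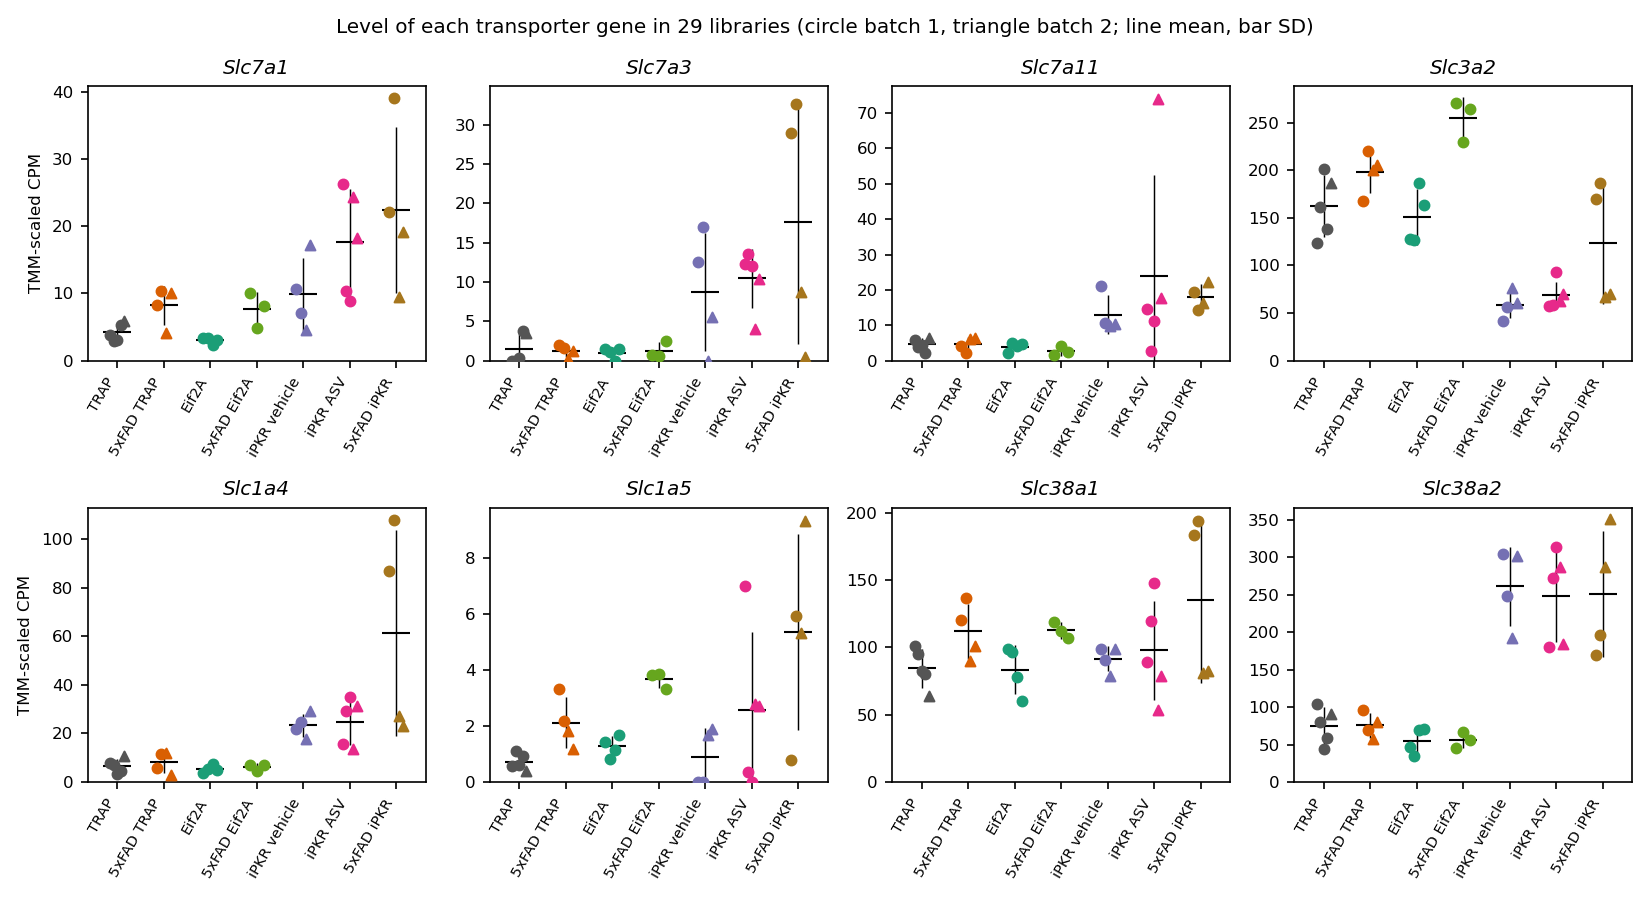
TMM-scaled CPM (y axes, linear from 0, 1 panel per gene) of the 8 transporter genes in each of 29 libraries by group (x axis); circles are batch 1, triangles batch 2, lines group means and bars SD. The 13 iPKR libraries lie at 169.4 or more for Slc38a2 and the 16 others at 104.5 or less. On this scale Slc3a2 is highest in the 3 5xFAD Eif2A libraries.

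Levels below are TMM-scaled CPM, counts scaled to library size by edgeR's TMM factors, listed by replicate number. A gene was called changed when edgeR's quasi-likelihood test gave a Benjamini-Hochberg adjusted p under 0.05 over all 16074 genes tested, in 1 model of all libraries with group, batch and labelled sex. All 8 transporters passed the low-count filter. Fold changes are log2 values from that model with their SE, and differ from ratios of means because batch and sex are fitted. No source says that mice were pooled. P-values measure the spread between these libraries.

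All differences called among the transporters lay between libraries with the iPKR construct and libraries without it. In iPKR vehicle against TRAP, 5 of 8 were called, where 54.1% of all genes were, with 4 higher (28.6% of all genes) and Slc3a2 lower (25.4% of all genes). In 5xFAD iPKR against 5xFAD TRAP, 6 of 8 were called beside 47.9% of all genes, 5 higher (25%) and Slc3a2 lower (23%). The members' median log2 fold change was 1.23 in the first comparison and 1.63 in the second, against 0.17 and 0.205 over all genes. With 8 members, 5 and 6 called lie not far from the shares of all genes, and most of those called were higher. Without 3 neuron-rich libraries the counts were 4 and 4, with 3 higher and Slc3a2 lower in each. In that fit 52.5% and 37.6% of all genes were called. None of the 3 is an iPKR vehicle or TRAP library, so that fit does not check the first comparison for neuron content. Neuron markers took 0.808% to 0.942% of counts in iPKR vehicle and 0.11% to 0.159% in TRAP.

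No transporter was called in the other 6 pairwise comparisons or in either difference of 5xFAD effects by edgeR, DESeq2 or limma-voom. The edgeR test called 0.79% of all genes in 5xFAD TRAP against TRAP, 3.1% in 5xFAD Eif2A against Eif2A and 1.72% in 5xFAD iPKR against iPKR ASV. It called 0% in Eif2A against TRAP (0 genes, with 912 at an unadjusted p under 0.05, and 41 by DESeq2 and 0 by limma-voom), 0.168% in 5xFAD Eif2A against 5xFAD TRAP and 0.423% in iPKR ASV against iPKR vehicle. With the 4 groups without iPKR fitted alone, these shares were 6.94% in 5xFAD TRAP against TRAP, 15.1% in 5xFAD Eif2A against Eif2A, 1.97% (272 genes) in Eif2A against TRAP and 4.25% in 5xFAD Eif2A against 5xFAD TRAP. The 5xFAD effect differed between Eif2A and TRAP for 0.00622% of genes and between iPKR and TRAP for 0.0373%. In both, the effect on the TRAP side holds VEGF with ASV as well as 5xFAD. At an unadjusted p under 0.05 stood 1, 2 and 3 of the 8 transporters in the 3 comparisons of 5xFAD with its control, in the order given, beside 10.2%, 14.7% and 13.3% of all genes, and 0 in each of the other comparisons of this paragraph. In data simulated for 5xFAD TRAP against TRAP (15690 genes), the test recovered 15% of genes changed 2-fold and 51% of those changed 4-fold, so changes of that size can be missed.

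**Figure D2:**
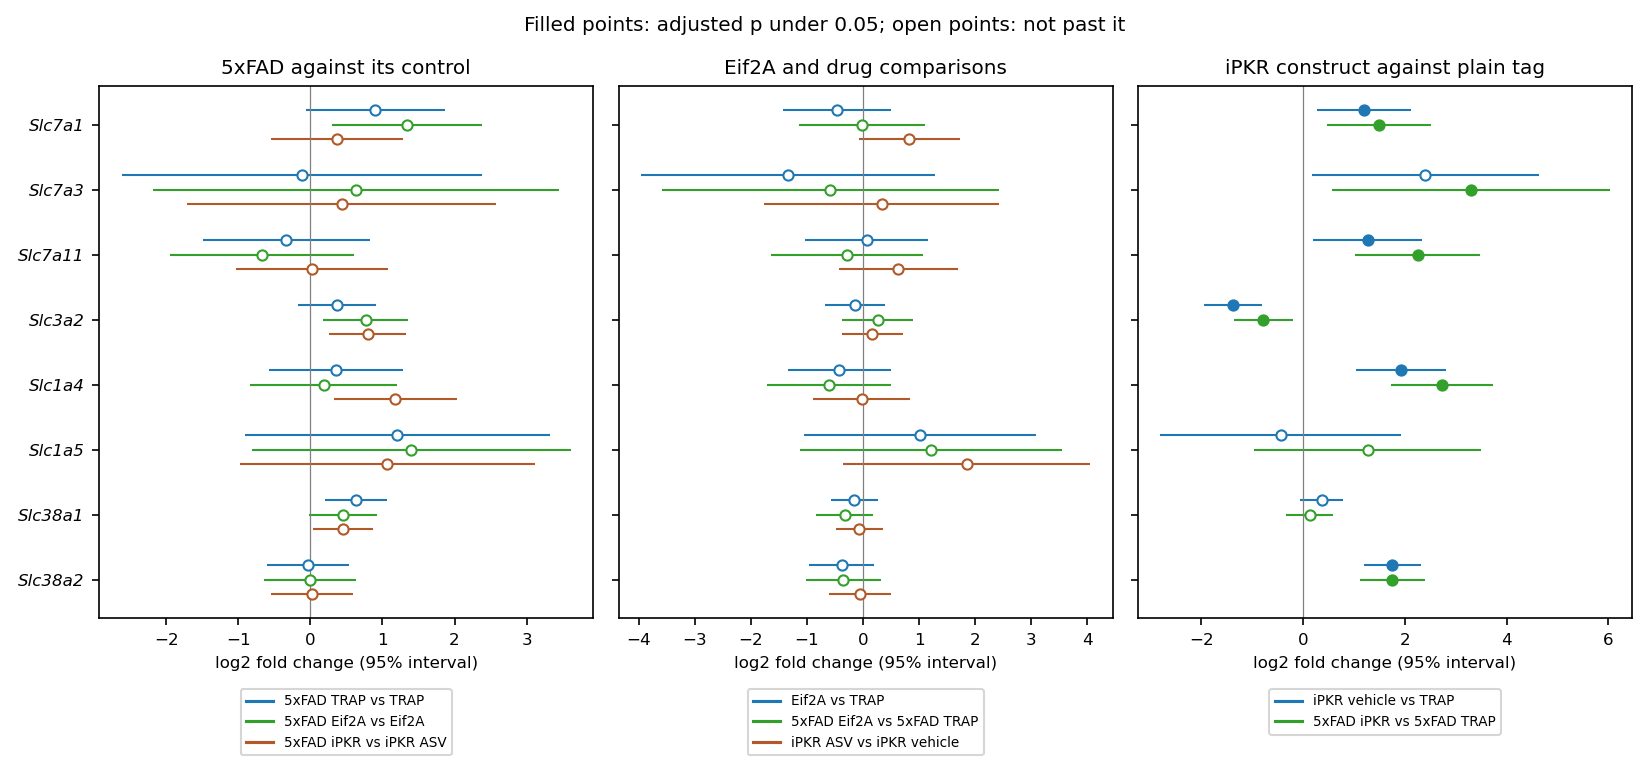
Log2 fold changes (x axes) of the 8 transporters (y axis) in 8 comparisons with 95% intervals from edgeR; filled points passed an adjusted p of 0.05 over all genes. Filled points appear only in the right panel, where Slc38a2 lies at 1.76 and 1.76 and Slc3a2 at -1.38 and -0.78.

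Slc38a2 (ENSMUSG00000022462.7, chr15:96687392-96699730, minus strand, mm10, as for all genes below) encodes SNAT2, a sodium-coupled carrier of small neutral amino acids that rises in many cells when amino acids run short. Its level was 104.5, 80.6, 43.8, 58.3 and 90.6 TMM-scaled CPM in TRAP and 304.4, 248.9, 192.6 and 301.4 in iPKR vehicle. Every vehicle library lay above every TRAP library, and the change passed the test (log2 fold change 1.76 ± 0.27 SE, adjusted p = 5.01e-06 by edgeR, n = 4 and 5). In 5xFAD TRAP it was 95.8, 70.1, 57 and 80.8 TMM-scaled CPM and in 5xFAD iPKR 169.4, 195.9, 287.7 and 350.9. Again the ranges were apart (log2 fold change 1.76 ± 0.31 SE, adjusted p = 4.06e-05 by edgeR, n = 4 and 4). Levels in iPKR ASV were 180.9, 272.5, 314.0, 287.6 and 184.4 TMM-scaled CPM, inside the range of the other iPKR libraries. Eif2A (47.2, 35, 69.2 and 70.5) and 5xFAD Eif2A (46.1, 67.5 and 55.7) held the lowest group means on this scale, 55.5 ± 17.3 and 56.5 ± 10.7 (SD). In the order of group means the iPKR groups overlapped one another, the other 4 groups overlapped one another, and the only gap lay between the 2 sets.

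Slc38a1 (ENSMUSG00000023169.15, chr15:96571418-96642913, minus strand) encodes SNAT1, a glutamine carrier known from neurons, and is the neighbour of Slc38a2 on the chromosome. It did not share the pattern. Its TMM-scaled CPM were 100.7, 95.4, 82.2, 80.1 and 64.2 in TRAP, 120.5, 136.4, 90.1 and 100.9 in 5xFAD TRAP, 99, 96.3, 77.9 and 59.9 in Eif2A and 118.9, 112.3 and 106.8 in 5xFAD Eif2A. The 3 libraries of 5xFAD Eif2A lay above all 4 of Eif2A, while the TRAP groups overlapped. As CPM per library total the Eif2A groups overlapped too, at 84.2 to 92.4 with 5xFAD and 50.9 to 86.5 without. With the construct the TMM-scaled CPM were 98.8, 90.6, 78.6 and 98.6 in iPKR vehicle, 88.9, 119.8, 147.9, 53.5 and 79.1 in iPKR ASV and 183.1, 193.5, 81.1 and 82.7 in 5xFAD iPKR. The first and second 5xFAD iPKR libraries were the highest of all 29. Log2 fold changes did not pass the edgeR test in iPKR vehicle against TRAP (0.37 ± 0.21 SE, adjusted p = 0.142) or in 5xFAD iPKR against 5xFAD TRAP (0.13 ± 0.22 SE, adjusted p = 0.661). In 5xFAD TRAP against TRAP it was 0.63 ± 0.21 SE, adjusted p = 0.223 by edgeR, and 0.48 with adjusted p = 0.0437 when only those groups were fitted.

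Slc3a2 (ENSMUSG00000010095.13, chr19:8706882-8723369, minus strand) encodes the heavy chain 4F2hc, which brings Slc7a11 and several other light chains to the cell surface. It was the 1 member called lower with the construct. TRAP libraries held 123.5, 161.6, 200.9, 138.0 and 186.7 TMM-scaled CPM and iPKR vehicle libraries 41.6, 56.3, 76.7 and 60.4. The highest vehicle library lay below the lowest TRAP library (log2 fold change -1.38 ± 0.28 SE, adjusted p = 0.000136 by edgeR, n = 4 and 5). Levels in iPKR ASV, 57.8, 58.9, 93.1, 62.3 and 70.2 TMM-scaled CPM, also lay below every TRAP library. In 5xFAD iPKR they split into 169.4, 187.0, 66.9 and 69.9, against 167.5, 220.3, 200.0 and 205.5 in 5xFAD TRAP. Replicates 1 and 2, both of batch 1, reached the 5xFAD TRAP range and replicates 3 and 4, both of batch 2, did not. The log2 fold change was -0.78 ± 0.28 SE, adjusted p = 0.0249 by edgeR. It was -1.68 (adjusted p = 5.39e-06) without the 3 neuron-rich libraries, -0.24 (adjusted p = 0.519) within batch 1, and -0.66 (adjusted p = 0.0673) with RLE and -0.66 (adjusted p = 0.0719) with upper-quartile size factors. Leaving out 5xFAD TRAP replicate 2 or 5xFAD iPKR replicate 3 or 4 also ended the call, at adjusted p = 0.0563, 0.114 and 0.168.

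Slc3a2 reached its highest levels in 5xFAD Eif2A, at 270.3, 229.6 and 264.3 TMM-scaled CPM, where Eif2A libraries held 127.3, 126.3, 186.2 and 163.0. On this scale all 3 exceeded every Eif2A library and every 5xFAD TRAP library. As CPM per library total, 5xFAD Eif2A held 209.9, 178.4 and 208.3 and 5xFAD TRAP 154.8, 195.9, 172.9 and 179.5, which overlap. The Eif2A libraries stayed below 5xFAD Eif2A on that scale too, at 106.2, 113.5, 167.0 and 138.6. The log2 fold change of 5xFAD Eif2A against Eif2A, 0.77 ± 0.29 SE, adjusted p = 0.168 by edgeR, did not pass when all 29 libraries shared 1 estimate of spread. It did pass in batch 1 alone (0.77, adjusted p = 0.0375), with only those groups fitted (0.73, adjusted p = 0.0102), without 3 neuron-rich iPKR libraries (0.76, adjusted p = 0.0105) and with the 4 groups without iPKR (0.75, adjusted p = 0.00334), where fold changes were nearly the same. Those fits called 4.73%, 12.9%, 5.2% and 15.1% of all genes in this comparison, more than the 3.1% of the model of all libraries. Against 5xFAD TRAP the log2 fold change was 0.26 ± 0.31 SE, adjusted p = 0.818 by edgeR. The 5xFAD effects of the Eif2A and TRAP lines differed by 0.40 (95% interval -0.40 to 1.20), a log2 difference that spans 0. Among these groups only 5xFAD TRAP mice were given VEGF with ASV, so allele and drug cannot be told apart in that difference.

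Slc7a11 (ENSMUSG00000027737.10, chr3:49892526-50443614, minus strand) encodes xCT, the light chain that takes up cystine for glutathione synthesis in exchange for glutamate. It moved opposite to its heavy chain. Levels were 5.84, 3.89, 4.37, 2.21 and 6.54 TMM-scaled CPM in TRAP and 21.2, 10.7, 9.88 and 10.3 in iPKR vehicle. The ranges were apart, and iPKR vehicle replicate 1 stood above the other 3 vehicle libraries. The log2 fold change was 1.27 ± 0.52 SE, adjusted p = 0.0412 by edgeR (n = 4 and 5), a call that ended without that library (0.74, adjusted p = 0.252). It also ended without any of TRAP replicates 1, 2, 4 and 5 and iPKR vehicle replicate 2 (adjusted p 0.0602 to 0.107). In 5xFAD TRAP the levels were 4, 2.19, 6.22 and 6.54 TMM-scaled CPM, below all of 19.3, 14.2, 16.2 and 22.3 in 5xFAD iPKR. This difference passed the edgeR test (log2 fold change 2.25 ± 0.60 SE, adjusted p = 0.00302, n = 4 and 4) and did so with each library left out, at adjusted p = 0.0112 or less.

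The spread of Slc7a11 was widest in iPKR ASV, at 14.5, 2.64, 11.2, 74 and 17.7 TMM-scaled CPM. Replicate 4 was the highest of all 29 libraries and replicate 2 lay in the TRAP range. Eif2A (2.16, 4.96, 4.02 and 4.83) and 5xFAD Eif2A (1.46, 4.21 and 2.5) libraries were within or below the TRAP range. Within each library, Slc7a11 counts were 0.016 to 0.0473 of Slc3a2 counts in TRAP, 0.129 to 0.51 in iPKR vehicle and 0.0449 to 1.19 in iPKR ASV. These ratios are not corrected for gene length and serve to compare libraries. The span of Slc7a11 in GENCODE overlaps 5 other gene models that have no row of their own in the table. Whether reads in them or in introns were counted is not given in the sources used here. The length behind the deposited RPKM values of Slc7a11 was its whole span, 551089 bases, against 13922 bases of exon.

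Slc1a4 (ENSMUSG00000020142.12, chr11:20302180-20332713, minus strand) encodes ASCT1, an exchanger of serine, alanine, cysteine and threonine known from astrocytes and neurons. It was higher with the construct in both comparisons. Levels were 7.88, 7.19, 3.54, 4.76 and 10.8 TMM-scaled CPM in TRAP and 21.8, 24.7, 17.7 and 29.2 in iPKR vehicle, with no overlap (log2 fold change 1.93 ± 0.43 SE, adjusted p = 0.000469 by edgeR, n = 4 and 5). They were 6.01, 11.5, 11.9 and 3.04 TMM-scaled CPM in 5xFAD TRAP and 86.9, 107.7, 27.3 and 23.2 in 5xFAD iPKR. Those ranges were apart too, and 5xFAD iPKR replicates 1 and 2 were over 3 times as high as replicates 3 and 4 (log2 fold change 2.73 ± 0.49 SE, adjusted p = 5.41e-05 by edgeR, n = 4 and 4). Without 3 libraries rich in neuron markers, which include that pair, it was 1.50 (adjusted p = 0.0218). Levels in iPKR ASV were 15.8, 29.1, 35, 13.6 and 31.1 TMM-scaled CPM and overlapped those of iPKR vehicle. Eif2A (3.96, 5.52, 7.36 and 5.06) and 5xFAD Eif2A (7.11, 4.38 and 7.15) libraries lay within the TRAP range.

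Slc1a5 (ENSMUSG00000001918.17, chr7:16781340-16798274, plus strand) encodes ASCT2, an exchanger of glutamine and other neutral amino acids. It was covered by 0 to 135 counts per library, so its estimates are the least precise beside those of Slc7a3. Levels were 0.584, 1.1, 0.624, 0.929 and 0.385 TMM-scaled CPM in TRAP and 3.34, 2.19, 1.81 and 1.17 in 5xFAD TRAP, and 1.44, 0.828, 1.15 and 1.69 in Eif2A and 3.83, 3.86 and 3.33 in 5xFAD Eif2A. In both lines all 5xFAD libraries exceeded all controls. In the TRAP line the gap was small, 1.17 in 5xFAD TRAP replicate 4 (5 counts) against 1.1 in TRAP replicate 2 (11 counts). The log2 fold changes, 1.21 ± 1.03 SE, adjusted p = 0.742 and 1.40 ± 1.08 SE, adjusted p = 0.62, did not pass the edgeR test, with 95% intervals of -0.91 to 3.32 and -0.81 to 3.61. With the construct the levels were 0, 0, 1.68 and 1.9 TMM-scaled CPM in iPKR vehicle, 7.01, 0.378, 0, 2.81 and 2.71 in iPKR ASV and 0.805, 5.92, 5.34 and 9.34 in 5xFAD iPKR. The 3 libraries at 0 allow up to 0.837, 0.0833 and 0.884 CPM, the level of 3 counts, for iPKR vehicle replicates 1 and 2 and iPKR ASV replicate 3. Such floors cover counting error only.

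Slc7a1 (ENSMUSG00000041313.14, chr5:148327410-148399904, minus strand) encodes CAT1, the broadly expressed importer of arginine and lysine. Levels were 3.79, 2.99, 3.12, 5.34 and 5.96 TMM-scaled CPM in TRAP and 10.6, 7.03, 4.62 and 17.2 in iPKR vehicle, and replicate 3 of the latter lay in the TRAP range. The log2 fold change was 1.20 ± 0.45 SE, adjusted p = 0.0261 by edgeR (n = 4 and 5). That call ended without TRAP replicate 1, 2 or 3 or iPKR vehicle replicate 1 (adjusted p 0.0518 to 0.0634) and, at 0.67 with adjusted p = 0.238, without iPKR vehicle replicate 4. In 5xFAD TRAP levels were 8.34, 10.4, 4.14 and 10 TMM-scaled CPM and in 5xFAD iPKR 22.1, 39.1, 9.44 and 19.2, overlapping at replicate 3 of the latter (log2 fold change 1.49 ± 0.50 SE, adjusted p = 0.0153 by edgeR). Without 5xFAD TRAP replicate 3 it was 1.22 (adjusted p = 0.0689), without 5xFAD iPKR replicate 2 it was 0.98 (adjusted p = 0.149), and without the 3 neuron-rich libraries 0.61 (adjusted p = 0.426). Levels in Eif2A were 3.42, 3.31, 2.35 and 3.04 TMM-scaled CPM and in 5xFAD Eif2A 10, 4.91 and 8.15, all 3 above all 4 (log2 fold change 1.34 ± 0.51 SE, adjusted p = 0.175 by edgeR, not passing). In iPKR ASV the levels were 26.3, 10.4, 8.84, 24.4 and 18.2 TMM-scaled CPM.

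Slc7a3 (ENSMUSG00000031297.14, chrX:101079210-101086020, minus strand) encodes CAT3, a cationic amino acid importer known mainly from neurons. Its levels were 0, 0, 0.312, 3.71 and 3.46 TMM-scaled CPM in TRAP and 12.6, 17, 0 and 5.58 in iPKR vehicle, with 1 vehicle library at 0. TRAP replicates 1 and 2 were also at 0, which allows up to 0.876 and 0.299 CPM, and vehicle replicate 3 allows up to 0.631 CPM. The log2 fold change of 2.40 ± 1.09 SE, adjusted p = 0.0642 by edgeR did not pass. With the replicate number as a block it was 4.39 (adjusted p = 0.0101). It also passed in batch 1 alone (3.69, adjusted p = 0.00793), without TRAP replicate 5 (3.53, adjusted p = 0.0131) and without iPKR vehicle replicate 3 (2.72, adjusted p = 0.0336). By limma-voom it passed too (4.84, adjusted p = 0.00125). Levels were 2, 1.64, 0.259 and 1.17 TMM-scaled CPM in 5xFAD TRAP and 29, 32.5, 8.72 and 0.415 in 5xFAD iPKR, where replicate 4 lay in the 5xFAD TRAP range. That log2 fold change, 3.29 ± 1.33 SE, adjusted p = 0.043 by edgeR, no longer passed without any 1 of 7 of the 8 libraries (all but 5xFAD iPKR replicate 4, adjusted p 0.0506 to 0.168). Without the 3 neuron-rich libraries it was 1.93 (adjusted p = 0.362), and by limma-voom it was 2.00 (adjusted p = 0.262). Levels in iPKR ASV were 12.3, 13.6, 12.1, 4.04 and 10.3 TMM-scaled CPM, above every library of the 4 groups without the construct.

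**Figure D3:**
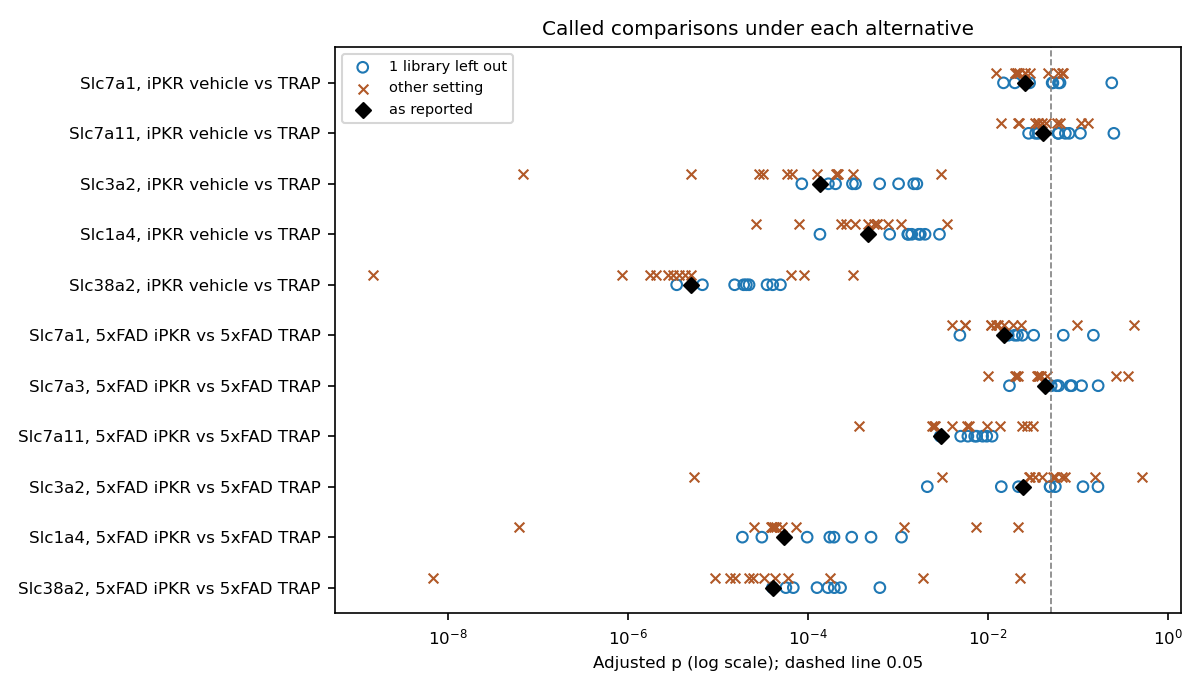
Adjusted p (x axis, log scale) of the 11 called member comparisons (y axis) as reported (diamonds), with each library of the groups compared left out (circles) and under the other settings (crosses); the dashed line is 0.05. Slc1a4 and Slc38a2 stay left of the line in both comparisons, Slc3a2 does in iPKR vehicle against TRAP and Slc7a11 in 5xFAD iPKR against 5xFAD TRAP, while the other 5 cross it.

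Of the 11 calls, 6 kept their side of the threshold under every setting and with every library of the groups compared left out. They are Slc1a4 and Slc38a2 in both comparisons, Slc3a2 in iPKR vehicle against TRAP and Slc7a11 in 5xFAD iPKR against 5xFAD TRAP. None of the 11 changed sign. By range alone, 4 of the 8 members did not overlap between iPKR vehicle and TRAP (48.6% of all genes did not), Slc7a11, Slc1a4 and Slc38a2 upward and Slc3a2 downward. Between 5xFAD iPKR and 5xFAD TRAP 3 did not (42% of all genes).

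Cell type markers moved with the same comparison of libraries. In iPKR vehicle against TRAP and in 5xFAD iPKR against 5xFAD TRAP, all 9 homeostatic microglial genes measured were called lower, with medians of -4.30 and -2.60 on the log2 scale. All 11 neuron markers were called higher (medians 2.52 and 2.38), as were 7 of 9 astrocyte markers in each and 6 and 8 of 8 oligodendrocyte markers, and 1 astrocyte marker was lower in the first. Border macrophage markers went the other way, with 6 and 2 of 6 called lower (medians -3.57 and -1.28). Their part in the transporter differences was not tested. Slc3a2 fell by 1.38 and 0.78 on the log2 scale, less than the medians of the homeostatic genes. Slc38a2 rose by 1.76 and 1.76, below the medians of the neuron markers, and Slc1a4 by 1.93, below that median, and 2.73, above it.

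Among libraries with the construct, the members differed in how they lay against neuron markers. In 5xFAD iPKR replicates 1 and 2, neuron markers took 3.14% and 3.62% of counts and astrocyte markers 0.371% and 0.539%, while in replicates 3 and 4 they took 0.594% and 0.567% and 0.155% and 0.168%. The first pair held more Slc1a4, Slc38a1, Slc3a2, Slc7a1 and Slc7a3 than the second and less Slc38a2, for which TMM-scaled CPM were 169.4 and 195.9 against 287.7 and 350.9. The first pair is of batch 1, with totals of 2.49 and 1.66 M counts. The second is of batch 2, with 8.20 and 12.5 M. Neuron share, batch and depth thus cannot be told apart between these pairs. In iPKR ASV replicate 3, where neuron markers took 2.25%, Slc1a4 (35.0 TMM-scaled CPM), Slc38a1 (147.9), Slc3a2 (93.1) and Slc38a2 (314.0) were each the highest of that group, while Slc7a1 (8.84) and Slc1a5 (0) were the lowest. The 3 libraries named neuron-rich above are these. Slc38a2 read 184.4 to 350.9 TMM-scaled CPM in the iPKR libraries with neuron shares under 1% and 169.4 to 314.0 in those above it, and its log2 fold change in 5xFAD iPKR against 5xFAD TRAP was 2.20 without the 3 libraries.

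**Figure D4:**
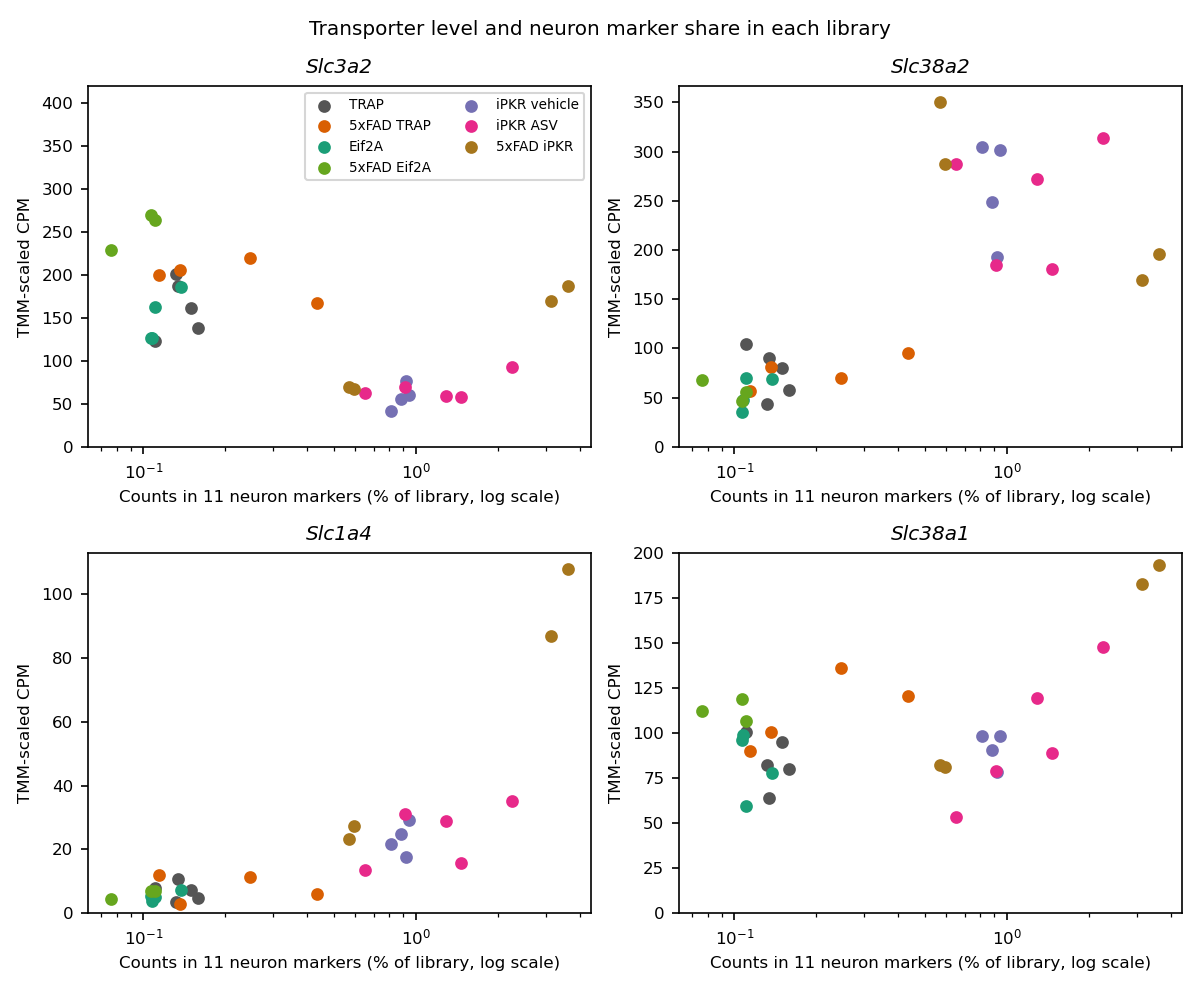
TMM-scaled CPM (y axes, linear) of Slc3a2, Slc38a2, Slc1a4 and Slc38a1 against the percent of counts in 11 neuron markers (x axes, log scale) in each of 29 libraries, coloured by group. The 2 libraries above 3% are 5xFAD iPKR replicates 1 and 2, which hold the highest Slc1a4 and Slc38a1 values. They are of batch 1, while 5xFAD iPKR replicates 3 and 4 are of batch 2.

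5xFAD was compared with its control on 3 backgrounds, and 12 of 12 disease-associated microglial genes were called higher on each, with log2 medians of 3.79, 4.11 and 3.41. The transporters' log2 medians were 0.362, 0.543 and 0.448 beside -0.0616, -0.0626 and 0.00486 over all genes. In 5xFAD TRAP against TRAP the ranges were apart for Slc1a5 alone (1 of 8, where 5.35% of all genes were apart). In 5xFAD Eif2A against Eif2A they were apart for Slc7a1, Slc3a2, Slc1a5 and Slc38a1, all higher, so 4 of 8 where 21.1% of all genes were apart and 11.5% were apart and higher. These are ranges of TMM-scaled CPM. As CPM per library total Slc38a1 overlapped in that comparison, while Slc7a1, Slc3a2 and Slc1a5 stayed apart. In 5xFAD iPKR against iPKR ASV they were apart for 0 of 8 (2.46% of all genes). With 3 to 5 libraries a group, ranges come apart more easily the smaller the groups.

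Slc3a2 and Slc1a4 had the smallest p on the iPKR background, with log2 fold changes of 0.80 ± 0.26 SE, adjusted p = 0.13 and 1.18 ± 0.42 SE, adjusted p = 0.17 by edgeR. Within batch 1 they were 1.37 (adjusted p = 0.00736) and 1.89 (adjusted p = 0.0158). Without the 3 neuron-rich libraries, which are of batch 1, they were -0.0019 and 0.0048. Slc38a2 lay near 0 in all 3 comparisons, at -0.04 (95% interval -0.61 to 0.54), -0.00 (95% interval -0.64 to 0.63) and 0.02 (95% interval -0.55 to 0.58) on the log2 scale. Slc7a11 lay at -0.33 (95% interval -1.50 to 0.83), -0.68 (95% interval -1.96 to 0.60) and 0.02 (95% interval -1.04 to 1.08). The intervals for Slc38a2 leave out a 2-fold change in either direction, a log2 of 1, and those for Slc7a11 do not. On the iPKR background Slc38a2 was at -0.45 within batch 1 and 0.60 without the 3 neuron-rich libraries, neither called. Homeostatic microglial markers moved with that comparison, with 3 of 9 called higher and a median of 1.34, against -0.07 and 0.253 on the other backgrounds, and their part in the transporter values was not tested.

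Eif2A against TRAP asked what the allele that cannot be phosphorylated does without 5xFAD. No transporter's range was apart (0 of 8, where 3.89% of all genes were apart), and the members' log2 median was -0.271 beside -7.03e-05 over all genes. Slc38a2 differed by -0.39 (95% interval -0.96 to 0.19), Slc3a2 by -0.15 (95% interval -0.68 to 0.38), Slc7a11 by 0.06 (95% interval -1.03 to 1.15) and Slc1a4 by -0.43 (95% interval -1.35 to 0.49) on the log2 scale. With 5xFAD, 5xFAD Eif2A against 5xFAD TRAP, only Slc3a2 had ranges apart in TMM-scaled CPM (1 of 8, 13% of all genes). As CPM per library total its ranges overlapped. The log2 median was -0.307 beside 0.026. Slc38a2 then differed by -0.35 (95% interval -1.02 to 0.31) and Slc1a4 by -0.60 (95% interval -1.71 to 0.50). VEGF with ASV was given to the 5xFAD TRAP mice and not to the 5xFAD Eif2A mice, so allele and drug cannot be told apart there.

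ASV against vehicle within the iPKR line addressed the drug that acts on the construct. Ranges were apart for 0 of 8 transporters (3.43% of all genes), and the log2 median was 0.247 beside 0.0085 over all genes. Slc38a2 differed by -0.05 (95% interval -0.61 to 0.50), Slc1a4 by -0.03 (95% interval -0.89 to 0.83) and Slc3a2 by 0.16 (95% interval -0.38 to 0.70) on the log2 scale. Slc7a1, at 0.82 (95% interval -0.08 to 1.73), and Slc1a5, at 1.85 (95% interval -0.35 to 4.05), had the largest differences, with intervals that span 0. In mice given VEGF with vehicle, Slc7a1, Slc7a11, Slc1a4 and Slc38a2 were called higher than in TRAP. Slc3a2 was called lower there, and Slc7a3, Slc1a5 and Slc38a1 were not called. The Slc7a1 and Slc7a11 calls ended when single libraries were left out.

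Levels of different genes were compared per kilobase of exon. Whether reads in introns were counted is not given in the sources used here, and if they were, the orders below may not hold. The length behind the deposited RPKM values equalled the whole span for each member except Slc38a2 (12305 against 12339 bases). In TRAP, TMM-scaled CPM per kilobase averaged 46.0 for Slc3a2, 8.55 for Slc38a2, 4.91 for Slc38a1 and 1.74 for Slc1a4. They averaged 0.396 for Slc7a3, 0.368 for Slc7a1, 0.328 for Slc7a11 and 0.173 for Slc1a5. In iPKR vehicle the same quantity was 29.6 for Slc38a2 and 16.6 for Slc3a2, so their order was exchanged. With coding length in place of exon length, Slc38a1 (58.1) came before Slc38a2 (50.0) in TRAP, and Slc38a2 (173.1) still came before Slc3a2 (34.7) in iPKR vehicle. The low members in TRAP then took the reverse order, Slc7a11 (3.03), Slc7a1 (2.27) and Slc7a3 (0.808).

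Other amino acid transporters were read from a list of 28, of which 25 were measured and tested. Of these, 12 were higher and 5 lower in iPKR vehicle against TRAP, and 9 were higher and 4 lower in 5xFAD iPKR against 5xFAD TRAP. Here and in the lists that follow, 28.6% of all genes were higher and 25.4% lower in the first comparison, and 25% and 23% in the second, so the lists' shares are read beside those. Slc3a1, the heavy chain that pairs with a cystine and dibasic amino acid carrier, rose (log2 fold changes 2.91 ± 0.29 and 2.46 ± 0.32 SE), and so did Slc1a2, the main glutamate transporter of astrocytes (2.32 ± 0.32 and 2.52 ± 0.34). Slc6a17, a vesicular transporter of neurons, rose by 2.74 ± 0.41 in the second. Slc7a8 and Slc7a7, light chains that pair with Slc3a2, fell by 2.10 and 3.67 in the first, and Slc38a10 fell by 1.94 in the second. In 5xFAD Eif2A against Eif2A, 2 were called higher, Slc38a10 (1.78 ± 0.27 SE, adjusted p = 0.000128) and the taurine transporter Slc6a6 (0.91 ± 0.23 SE, adjusted p = 0.0199), both by edgeR. None was called in the other 5 pairwise comparisons.

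ATF4 pathway genes that are not transporters, 24 in number and all tested, were called in both directions, at shares near those of all genes. There were 6 higher and 8 lower in iPKR vehicle against TRAP, and 7 and 6 in 5xFAD iPKR against 5xFAD TRAP. Asns, asparagine synthetase, rose by 2.82 ± 0.47 and 2.64 ± 0.51 (log2, SE), and the lipoprotein receptor gene Vldlr by 2.69 ± 0.36 and 2.48 ± 0.40. Cebpb, a partner of ATF4 that microglia also express, fell by 3.05 and 2.35, Phgdh, which opens serine synthesis, by 1.93 in the first, and Cebpg by 1.98 in the second. In 5xFAD TRAP against TRAP, Psat1, the second enzyme of serine synthesis, rose (2.13 ± 0.30 SE, adjusted p = 0.000132) and Ddit4, an mTORC1 inhibitor, fell (-3.05 ± 0.63 SE, adjusted p = 0.0104), both by edgeR. In 5xFAD Eif2A against Eif2A, Psat1 (2.17 ± 0.33) and the stress factor gene Atf3 (2.75 ± 0.62) rose, and in 5xFAD iPKR against iPKR ASV Phgdh rose (0.96 ± 0.24). None was called in the other 3 pairwise comparisons.

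Genes of glutathione and cystine use, with antioxidant genes such as Nfe2l2, Hmox1 and Srxn1, were read from a list of 16, all tested. The test called 4 higher and 5 lower in iPKR vehicle against TRAP, and 5 and 5 in 5xFAD iPKR against 5xFAD TRAP. Nfe2l2, which encodes the antioxidant regulator NRF2 and is expressed by microglia, fell by 4.20 and 2.15 on the log2 scale. Gpx1, a glutathione peroxidase, fell by 3.05 and 2.58, Hmox1, heme oxygenase, by 3.16 and 1.80, and Gpx4, which reduces lipid peroxides, by 1.71 in the second. Srxn1, sulfiredoxin, rose by 2.19 ± 0.27 in the first. In 5xFAD iPKR against iPKR ASV, Nfe2l2 rose (1.26 ± 0.24 SE, adjusted p = 0.00365 by edgeR), the 1 gene of the list called there, where homeostatic microglial markers were higher too (3 of 9 called, log2 median 1.34), and none was called in the other 5 pairwise comparisons.

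Genes of amino acid signalling to mTORC1, the growth kinase complex, with some of its own subunits, were read from a list of 19, of which 17 were tested. In iPKR vehicle against TRAP 5 were higher and 7 lower, and in 5xFAD iPKR against 5xFAD TRAP 6 and 8. Rragb, a Rag GTPase, rose by 2.38 ± 0.32 and 2.23 ± 0.35 (log2, SE) and Sesn3, a sestrin, by 1.68 ± 0.28 and 1.94 ± 0.30. Lamtor4, of the lysosomal anchor, fell by 2.64 and 2.25, Rptor, the mTORC1 scaffold, by 1.50 in the first, and Rragc by 1.31 in the second. None was called in the other 6 pairwise comparisons.

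The genes most like each member were found by Pearson's r of log2 CPM, as a description, among about 9894 genes with a mean log2 CPM of at least 3. Over the 16 libraries without iPKR, Slc3a2 lay closest to Tcn2 (r = 0.959), Laptm5 (0.950) and Abhd12 (0.946), and Slc1a5 to Arhgap25 (0.944), Litaf (0.943) and Plek (0.922). Slc38a1 lay closest to Ubqln1 (0.872), Utp15 (0.869) and Kpna2 (0.868), Slc7a11 to Lrfn5 (0.864), Adra2c (0.862) and Asic1 (0.862), and Slc38a2 to Scfd2 (0.845) and Herc4 (0.831). For Slc7a1 they were Rsrc1 (0.843), Hspd1-ps3 (0.833) and Actr3b (0.829), for Slc1a4 Tril (0.827), Slc6a15 (0.742) and Slc41a2 (0.737), and for Slc7a3 Sirt5 (0.798), 4933404O12Rik (0.737) and Anapc5 (0.717).

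Over all 29 libraries the closest genes were mostly others. Among the genes close to Slc38a2 were Hdac4 (r = 0.954) and Inpp5a (0.953). Slc3a2 lay closest to Ctsf (0.952), Tmem59 (0.952) and Pdia3 (0.946), and Slc1a4 to Cpe (0.942), Clu (0.941) and Atp1b1 (0.939). Slc38a1 lay closest to Dlst (0.896), Gars (0.878) and Thumpd1 (0.877), Slc7a11 to Zswim5 (0.882), Adcy9 (0.873) and Lingo2 (0.872), and Slc7a1 to Ece1 (0.834), Zc3h12b (0.818) and Tfrc (0.814). Slc7a3 lay closest to Mars2 (0.798), Ddhd2 (0.794) and Fam179b (0.780), and Slc1a5 to Slc25a20 (0.706), Anxa2 (0.701) and Tmem175 (0.675). The libraries share depth, batch and cell type makeup, and no p is given.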

How the data were processed

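The submitters' processing notes name the mm10 genome, featureCounts 2.0.3, HISAT2 2.2.1 and Trim Galore; the annotation, strand, feature type and treatment of reads with several matches are not given in the sources used here. The authors deposited raw counts for 22327 symbols, tested here, and RPKM values, used here only to recover the gene length behind them, which was within 0.1% of the whole gene span for 86.3% of 21439 symbols. A low-count filter (filterByExpr, minimum count 10, total 15) left 16074 genes, which were tested with edgeR 4.0.16 in R 4.3.3: TMM factors, 1 quasi-likelihood model of 29 libraries with group, batch and sex (20 residual degrees of freedom), two-sided, Benjamini-Hochberg adjusted. The procedure was tested on simulated data. Log2 CPM for likeness used a prior count of 2. A gene among those most like Slc38a2 is not reported here. Gene positions and lengths are from GENCODE M21. The members, gene lists and tests were chosen with earlier results of these data known. Genes named from a list were the called ones with the smallest p, up to 4 per comparison, and all members were named. Alternatives were RLE and upper-quartile factors, no filter, a minimum count of 30, models without sex or batch, a replicate block, batch 1 alone, only the groups compared, DESeq2 1.42.0, limma-voom (limma 3.58.1), each library left out, and fits without 3 neuron-rich libraries. A fit of the 4 groups without iPKR was added after seeing the data. Same-numbered libraries of 5xFAD iPKR and 5xFAD TRAP deviated together (r 0.253 to 0.424 over 4 pairs) and share batches; pairing them changed no member's call there. Listed genes without a row, such as Slc7a5, were not analysed here.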

Additional observations from a re-analysis of the deposited data

Results flagged for a closer look

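In each group of 4 or 5 libraries, the gap between the highest or lowest library and the next was compared with the group's range by Dixon's test, for 48 combinations of member and group. The test flags about 1 in 20 such groups by chance, and 2 of 48 were flagged, both for Slc7a11. In iPKR vehicle, replicate 1 held 21.2 TMM-scaled CPM of Slc7a11 (76 counts) where the other 3 libraries held 9.88 to 10.7. In iPKR ASV, replicate 4 held 74.0 TMM-scaled CPM (659 counts) where the other 4 held 2.64 to 17.7.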

How the results depend on the processing

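Of the 80 member comparisons, 11 were called and 69 were not, and 62 of the 69 stayed uncalled under every alternative and with each library of the groups compared left out. No call changed sign. The number of members called in 5xFAD TRAP against TRAP was 1 in place of 0 with only the groups compared in the model (Slc38a1), where 6.12% of all genes were called in place of 0.79%. In 5xFAD Eif2A against Eif2A it was 1 in batch 1 alone, 1 without the 3 libraries richest in neuron markers and 1 with only the groups compared (Slc3a2 each time), and 2 with the 4 groups without iPKR alone (Slc3a2 and Slc7a1, the latter 1.35 on the log2 scale, adjusted p = 0.0429 by edgeR), where 4.73%, 5.2%, 12.9% and 15.1% of all genes were called in place of 3.1%. In 5xFAD iPKR against iPKR ASV it was 2 in batch 1 alone, where 3% of all genes were called in place of 1.72%. In 5xFAD Eif2A against 5xFAD TRAP, with 0 members called throughout, only the groups compared gave 9.06% of all genes in place of 0.168%. The cause was not tested, except that fewer libraries entered each of these fits. With each library left out, the count ran from 3 to 6 in iPKR vehicle against TRAP, with 3 without TRAP replicate 1 or 2 or iPKR vehicle replicate 1, and from 4 to 5 in 5xFAD iPKR against 5xFAD TRAP. With the replicate block the counts were 5 and 6 in these comparisons and 0 in the rest. In iPKR vehicle against TRAP the block ended the Slc7a11 call (1.17, adjusted p = 0.107) and made Slc7a3 pass; it changed no other call. Numbers there and in the other comparisons did not pair the libraries. By DESeq2 and limma-voom the counts were 5 and 4 in iPKR vehicle against TRAP and 5 and 4 in 5xFAD iPKR against 5xFAD TRAP. In iPKR vehicle against TRAP within batch 1, Slc1a5 was called lower, against 2 vehicle libraries at 0, so no fold is given. RLE and upper-quartile factors moved the median log2 fold change of all genes by at most 0.0896 in size. They moved the share of higher genes among calls in 5xFAD Eif2A against Eif2A from 66.9% to 56.8% and 52.5%, and with RLE in 5xFAD Eif2A against 5xFAD TRAP from 25.9% to 40%. CPM per library total moved 8 of 56 group means by more than 1 SD. Low counts limit Slc7a3 and Slc1a5 most.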
